A study of Rattus norvegicus with 15 samples.

Results

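Leukocyte marker genes were examined in the small intestine of rats, on 15 one-color Agilent whole-genome arrays in 3 groups of 5. The list held 38 genes, markers of T cells, cytotoxic cells, B cells and myeloid cells, among them the pan-leukocyte gene Ptprc. A gene was taken by its name in the array files, and 36 of the 38 were found in this way. The brightest probe stood for each gene, and 34 of the 36 could be tested among 13025 genes tested on the platform, because Cd2 and Cd28 were not well above background on every array of any group. The ecto-enzyme gene Art2b was found by its transcript record and the immunoglobulin J chain gene (Igj) by its description, and both are reported outside the counts.

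Wistar rats were male and not operated, and they served as nondiabetic controls. Goto-Kakizaki (GK) rats are a nonobese diabetic strain bred from Wistar rats, so that strain and diabetes cannot be told apart between the GK and Wistar groups. GK-Sham-PF rats were male GK rats operated at 16 wk of age, in which the intestine was cut 16 cm from the ligament of Treitz and rejoined, and they were pair-fed afterward. GK-S-30 rats were male GK rats that received Roux-en-Y gastric bypass (RYGB) at the same age, with a 30-cm Roux limb (RL), the piece of intestine that carries food from the stomach pouch without bile, and these 5 samples are called the Roux limb. Tissue was taken 14 wk postoperation after an overnight fast, as a 5-cm segment lying 5 cm from the gastric anastomosis in GK-S-30 rats and 21 to 26 cm from the ligament of Treitz in the other groups. All groups ate standard laboratory chow in the end. Since Wistar rats were neither operated nor pair-fed, operation also cannot be told apart from strain between the GK and Wistar groups. For GK-Sham-PF the same holds for pair-feeding.

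The intestinal wall holds many leukocytes in health. T cells are recognized by the CD3 chains, which carry the signal of the T cell receptor, and the T cells that lie within the epithelium are mostly CD8-positive and carry granzymes. B cells mature into plasma cells that secrete IgA joined by the J chain, while macrophages of the lamina propria clear debris and bacteria. In RNA from a segment of intestine, fewer cells of a type and less RNA per cell cannot be told apart.

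On these arrays between 66.7% and 74.8% of the probes were well above background. The dimmest arrays were GK-Sham-PF replicate 5 and Wistar replicate 3, with 75th percentiles of the processed signal of 208 and 207 against 302 to 357 on the other arrays. They also stood apart for several markers, so that each count of members below is given without them as well. GK-Sham-PF replicate 5 was the lowest array of its group for Cd3d, Cd3e and Cd3g, so counts without it are no independent check. All values are log2 signals after quantile normalization, and a difference is the difference in mean log2 signal ± SE from limma over all 15 arrays, with p adjusted over all genes tested.

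**Figure D1:**
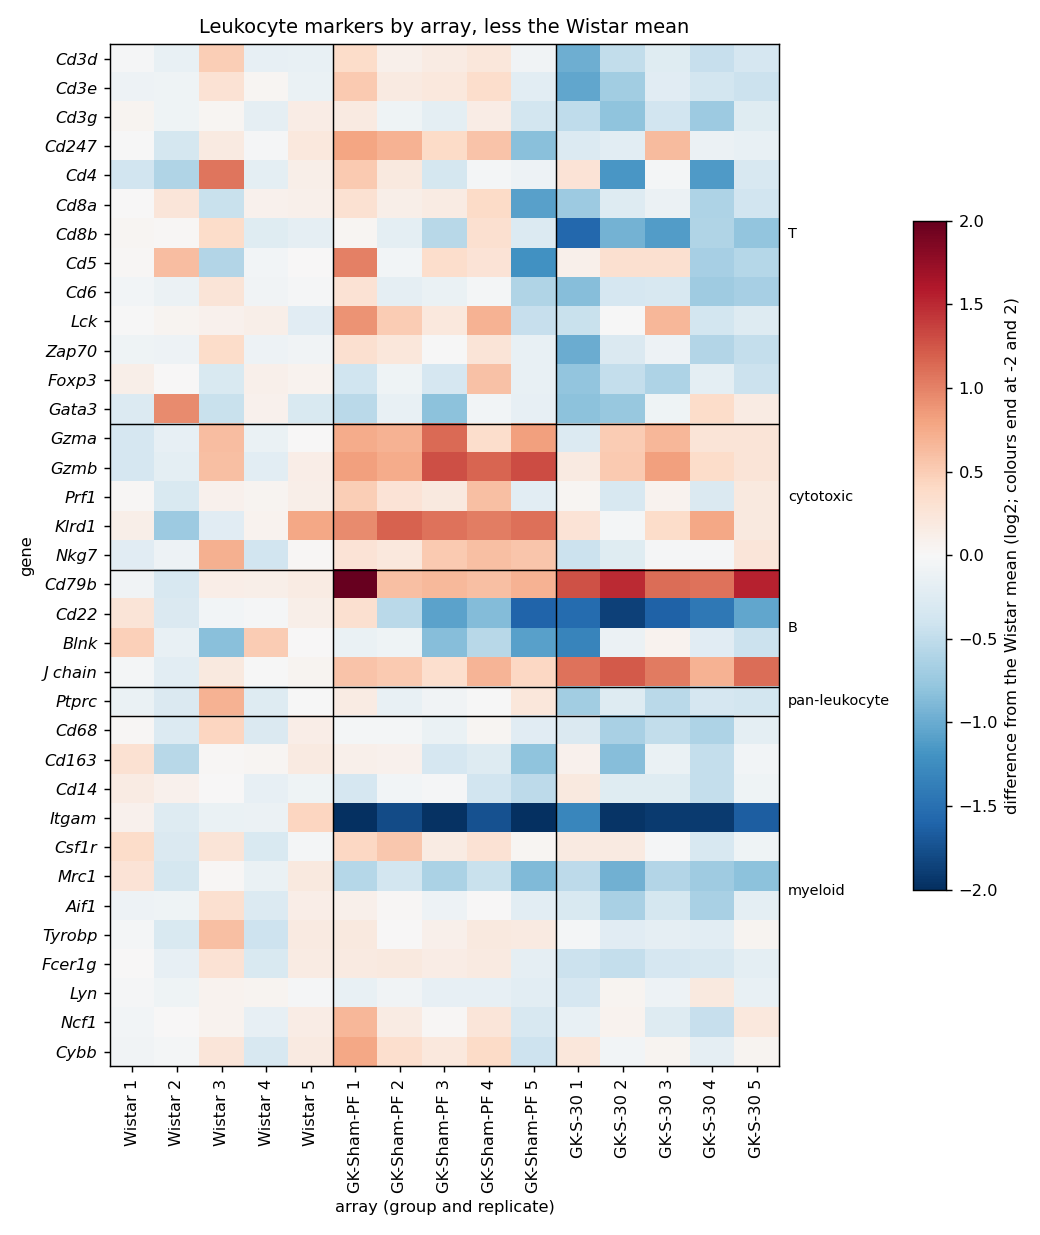
Log2 signal of each leukocyte marker that could be tested, less the mean of the 5 Wistar arrays, for the 15 arrays (columns) and the genes by cell class (rows), with colors ending at -2 and 2. Most T cell rows are blue on the GK-S-30 arrays, and Itgam is dark blue on all GK arrays. The cytotoxic rows are red on the GK-Sham-PF arrays except Prf1 on replicate 5. Art2b is left out because its difference is far beyond the scale.

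In the Roux limb, 5 of 13 T cell genes and 2 of 5 cytotoxic genes tested were lower than in the intestine of sham-operated GK rats, together with 1 of 12 myeloid genes. Over all genes tested 9.66% differed, with 4.49% lower and 5.17% higher in the Roux limb. The members were chosen with earlier results of these data known. Values over all genes, here and in the following comparisons, are therefore given for scale and not as a test of the list. Of the 34 members tested, 8 differed and all 8 were lower in the Roux limb. The 8 were the T cell receptor chains Cd3d, Cd3e and Cd3g, the coreceptor chain Cd8b, the kinase Zap70, granzyme B (Gzmb), the killer-cell receptor chain Klrd1 and the Fc receptor chain Fcer1g. The members had a median log2 difference of -0.40, and 28 of 34 had a lower mean in the Roux limb, against a median of -0.03 over all genes tested. Without the 2 dimmer arrays, 16 members differed, 7 of them among the 8, and none was higher in the Roux limb. The calls over all genes without these arrays are not given here, for this or the following comparisons. Those counts of members therefore have no share to be set against. The 9 added were Cd247, Cd6, Cd8a, Prf1, Nkg7, Cd22, Ptprc, Cd68 and Aif1, with Cd8a at -0.66 (adjusted p = 0.00448) and Ptprc at -0.42 (adjusted p = 0.0212).

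The count depended on single arrays. It was 12 without Wistar replicate 3 or GK-Sham-PF replicate 5, 4 without GK-Sham-PF replicate 2, 4 without GK-Sham-PF replicate 4 and 5 without GK-Sham-PF replicate 1, GK-Sham-PF replicate 3, GK-S-30 replicate 1 or GK-S-30 replicate 2. Over all genes the calls moved too, from 866 to 1502 with single arrays left out, against 1258 with all arrays. The arrays lay on 4 slides, and with slide as a fixed block 2 members, Cd3e and Cd8b, were called. On the slide that held both groups, with 2 arrays of each, all 8 genes were lower in the Roux limb, from -0.45 for Fcer1g to -1.28 for Cd8b on the log2 scale.

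Between GK-Sham-PF and Wistar rats, 3 of 5 cytotoxic genes were higher and 2 of 12 myeloid genes lower in GK-Sham-PF. Of the 34 members, 6 differed. Over all genes tested 8.84% differed, with 4.21% higher and 4.63% lower in GK-Sham-PF. Granzyme A (Gzma), Gzmb, Klrd1 and the B cell receptor chain Cd79b were higher in GK-Sham-PF, and the integrin chain Itgam and the mannose receptor Mrc1 were lower. None of the 13 T cell members tested was called by limma, and none of them had an unadjusted p under 0.05. Without the 2 dimmer arrays 9 members differed, 7 of them higher in GK-Sham-PF. Those added were the T cell gene Cd247 (0.65, adjusted p = 0.0413), Nkg7 (0.58, adjusted p = 0.0232) and Cybb (0.49, adjusted p = 0.0401). With slide as a fixed block only Itgam was called, and on the slide with 3 GK-Sham-PF arrays and 1 Wistar array the differences were 1.19 for Gzma, 1.28 for Gzmb, 0.94 for Klrd1, 1.27 for Cd79b, -2.02 for Itgam and -0.81 for Mrc1.

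In GK-S-30 against Wistar rats, 14 of the 34 members differed, 13 of them lower in the Roux limb, where 26.2% of all genes differed and 13.8% were lower. The 13 were 7 T cell genes, the B cell coreceptor Cd22 and 5 myeloid genes, and Cd79b was the 1 member that was higher. No slide held arrays of both groups, and with slide as a fixed block none of the 34 members was called by limma, 5 had an unadjusted p under 0.05, and the lowest adjusted p was 0.109 for Cd8b. Without the 2 dimmer arrays the count was 15. This comparison shares its Wistar arrays with the one before it and its GK-S-30 arrays with the one above, so the 3 sets of differences are not independent.

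**Figure D2:**
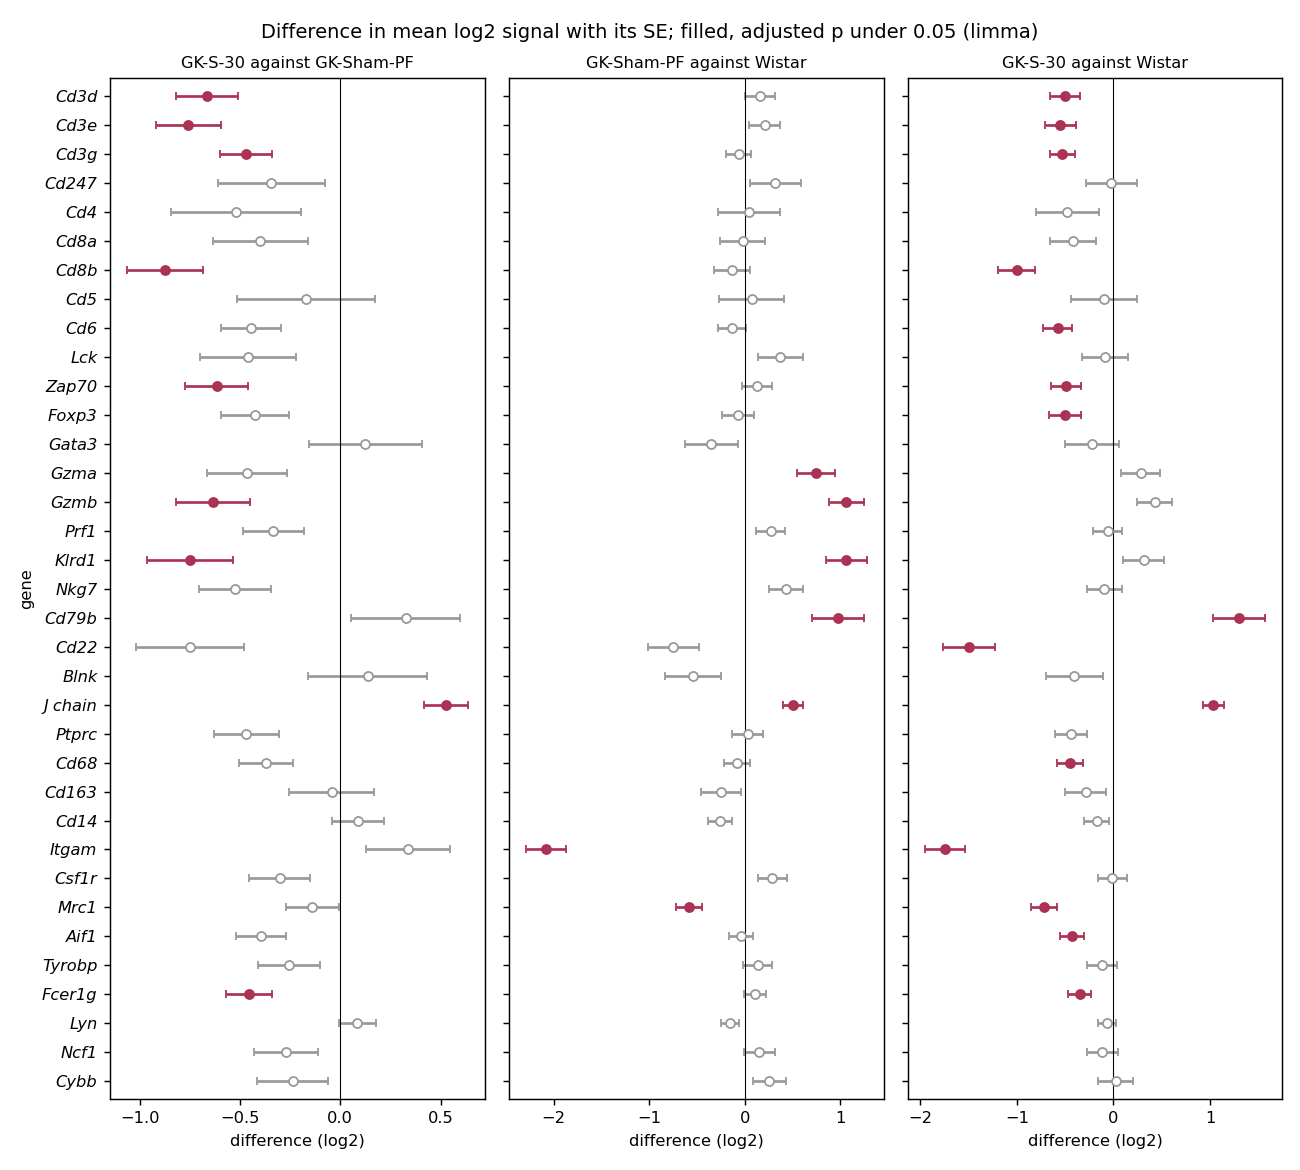
Difference in mean log2 signal (horizontal axis, with SE as bars) of each marker except Art2b in the 3 comparisons of 5 arrays with 5, where filled points have an adjusted p under 0.05. In the GK-S-30 against GK-Sham-PF panel the filled points lie left of 0 except J chain, and the horizontal scales differ between panels.

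The 3 invariant CD3 chains of the T cell receptor were all lower in the Roux limb than in either other group. Cd3d gave 11.71, 11.58, 12.24, 11.58 and 11.59 on the Wistar arrays, 12.11, 11.85, 11.90, 11.97 and 11.66 in GK-Sham-PF and 10.77, 11.24, 11.49, 11.28 and 11.40 in the Roux limb, replicates 1 to 5 in order. Every GK-S-30 array lay below every array of the other groups, with a difference of -0.66 ± 0.15 from GK-Sham-PF (adjusted p = 0.0141) and -0.50 ± 0.15 from Wistar (adjusted p = 0.0245). Wistar replicate 3 was the highest of the 15. The difference from Wistar had an adjusted p of 0.0511 without it and of 0.0592 without GK-S-30 replicate 1, the lowest array.

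Cd3e, the chain that pairs with both others, gave 7.39, 7.41, 7.79, 7.55 and 7.36 on the Wistar arrays, 8.02, 7.68, 7.71, 7.85 and 7.28 on the GK-Sham-PF arrays and 6.46, 6.81, 7.28, 7.14 and 7.07 in the Roux limb. The GK-S-30 arrays again lay below all others, although the nearest, GK-Sham-PF replicate 5 and GK-S-30 replicate 3, were equal to 2 decimals. They were 1.69-fold under GK-Sham-PF (log2 difference -0.76 ± 0.16, adjusted p = 0.00887) and 1.46-fold under Wistar (log2 difference -0.55 ± 0.16, adjusted p = 0.0203). Its difference from GK-Sham-PF kept an adjusted p under 0.05 in all 28 alternative settings with a test. Cd3g gave 12.48, 12.34, 12.47, 12.25 and 12.58 on the Wistar arrays, 12.61, 12.34, 12.23, 12.57 and 12.06 on the GK-Sham-PF arrays and 11.91, 11.63, 12.05, 11.70 and 12.19 in the Roux limb. GK-Sham-PF replicate 5 fell within the range of the GK-S-30 arrays, while all 5 Wistar arrays were above them. The differences of Cd3g in the Roux limb were -0.47 ± 0.13 from GK-Sham-PF (adjusted p = 0.0339) and -0.53 ± 0.13 from Wistar (adjusted p = 0.00732). The former passed the threshold no longer without GK-Sham-PF replicate 1, 2 or 4 or GK-S-30 replicate 1, 2 or 4, with adjusted p up to 0.0888.

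The zeta chain Cd247, which completes the receptor, was dim. It ranged from 3.50 to 5.14 over the 15 arrays, was not well above background on GK-Sham-PF replicate 5, and differed by -0.34 ± 0.27 between the Roux limb and GK-Sham-PF (adjusted p = 0.482).

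The genes of the 3 CD3 chains lie close together on chromosome 8, and the 250 bases before their start sites in the RefSeq table for build GRCr8 are shown with those of Zap70, since these are the T cell genes that differed between the GK groups and have an entry there. Gzmb is shown because it differed in both comparisons with GK-Sham-PF. Capitals mark 4 short motifs on either strand. The letters TGTGGT, a core bound by RUNX factors, stood in the same window of 14.5% of all 33469 promoters in the table. The letters AGGAAG, bound by ETS factors, stood in 29.5% of them. The E-box letters CAGCTG stood in 12% and the TATA box letters TATAAA in 12.9%.
Cd3d, chr8:54185269-54185518, plus strand: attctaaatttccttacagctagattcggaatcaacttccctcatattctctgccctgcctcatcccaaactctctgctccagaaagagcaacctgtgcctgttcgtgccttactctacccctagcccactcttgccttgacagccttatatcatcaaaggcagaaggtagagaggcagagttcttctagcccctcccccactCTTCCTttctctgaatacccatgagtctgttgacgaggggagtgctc
Cd3e, chr8:54211771-54212020, minus strand: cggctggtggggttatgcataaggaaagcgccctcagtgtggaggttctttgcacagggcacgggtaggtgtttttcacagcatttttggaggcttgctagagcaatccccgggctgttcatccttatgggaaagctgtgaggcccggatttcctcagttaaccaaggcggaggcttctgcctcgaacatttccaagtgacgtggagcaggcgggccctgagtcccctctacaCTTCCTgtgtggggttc
Cd3g, chr8:54183919-54184168, minus strand: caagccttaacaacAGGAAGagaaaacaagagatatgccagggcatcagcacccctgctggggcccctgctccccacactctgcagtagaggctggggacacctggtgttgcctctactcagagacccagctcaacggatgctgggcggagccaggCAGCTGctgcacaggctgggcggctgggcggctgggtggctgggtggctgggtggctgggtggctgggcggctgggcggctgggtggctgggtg
Zap70, chr9:46485355-46485604, plus strand: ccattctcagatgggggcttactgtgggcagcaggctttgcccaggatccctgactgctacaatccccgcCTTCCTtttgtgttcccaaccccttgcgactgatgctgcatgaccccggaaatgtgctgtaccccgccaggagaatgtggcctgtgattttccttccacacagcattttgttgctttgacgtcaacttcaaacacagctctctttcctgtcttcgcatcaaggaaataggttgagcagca
Gzmb, chr15:34462470-34462719, minus strand: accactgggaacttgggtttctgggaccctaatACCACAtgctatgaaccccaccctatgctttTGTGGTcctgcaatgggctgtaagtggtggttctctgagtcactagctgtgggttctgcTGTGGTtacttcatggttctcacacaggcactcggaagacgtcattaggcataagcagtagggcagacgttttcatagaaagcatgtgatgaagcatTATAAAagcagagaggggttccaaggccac
Each of the 4 T cell promoters held 1 copy of the ETS letters, and none held the RUNX letters, which occurred 3 times before Gzmb. Among the 13 T cell members with an entry, 7 held the ETS letters, or 53.8%, and among all 28 members with an entry 16 did. These are matches of letters and not measured sites.

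The Cd3e probe matched the transcript from base 320 and lay at chr8:47950313-47950372 in build rn4, the build named in the array files. It is shown because Cd3e was the T cell gene whose call against GK-Sham-PF was never lost.
Cd3e probe: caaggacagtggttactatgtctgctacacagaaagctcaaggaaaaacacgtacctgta

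Cd8a and Cd8b encode the chains CD8 alpha and CD8 beta that CD8-positive T cells can carry. Cd8b gave 8.57, 8.54, 8.89, 8.28 and 8.34 on the Wistar arrays, 8.57, 8.33, 7.97, 8.85 and 8.26 on the GK-Sham-PF arrays and 6.96, 7.58, 7.41, 7.92 and 7.74 in the Roux limb. All GK-S-30 arrays were below all others, 1.83-fold under GK-Sham-PF (log2 difference -0.87 ± 0.19, adjusted p = 0.00967) and 2-fold under Wistar (log2 difference -1.003 ± 0.19, adjusted p = 0.00121). With slide as a fixed block the latter was -1.56 and did not pass (adjusted p = 0.109). Cd8a, its partner, had means of 8.46 ± 0.26 on the Wistar arrays, 8.44 ± 0.61 on the GK-Sham-PF arrays and 8.04 ± 0.25 in the Roux limb (SD, n = 5). Its difference of -0.40 ± 0.24 between the GK groups did not pass (adjusted p = 0.337), and GK-Sham-PF replicate 5 at 7.37 was the lowest of all 15 arrays. Cd4, the coreceptor of helper T cells, was dim at 3.32 to 5.55 and well above background on 3 GK-S-30, 5 GK-Sham-PF and 4 Wistar arrays. None of its differences passed, the difference of the Roux limb from GK-Sham-PF being -0.52 ± 0.32 (adjusted p = 0.361).

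Behind the receptor, the kinases Lck and Zap70 pass the signal on. Zap70 gave 10.46, 10.44, 10.92, 10.45 and 10.47 on the Wistar arrays, 10.87, 10.77, 10.54, 10.81 and 10.39 on the GK-Sham-PF arrays and 9.55, 10.26, 10.45, 9.96 and 10.07 in the Roux limb. The highest GK-S-30 array, replicate 3, lay above GK-Sham-PF replicate 5 and within the range of Wistar. The differences of the Roux limb were -0.62 ± 0.16 from GK-Sham-PF (adjusted p = 0.023) and -0.49 ± 0.16 from Wistar (adjusted p = 0.0321). The former was lost without GK-Sham-PF replicate 1, 2 or 4 (adjusted p up to 0.0592). The latter was -0.40 without the dimmer arrays (adjusted p = 0.0578) and was lost without Wistar replicate 3 or GK-S-30 replicate 1, 4 or 5 (adjusted p up to 0.0760). Lck had means of 5.89 ± 0.14, 6.26 ± 0.53 and 5.81 ± 0.45 (SD, n = 5) in Wistar, GK-Sham-PF and the Roux limb and passed in no comparison, with -0.46 ± 0.24 between the GK groups (adjusted p = 0.259).

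Among the surface molecules that tune T cell activation, Cd6 gave 11.59, 11.52, 11.89, 11.56 and 11.61 on the Wistar arrays, 11.92, 11.46, 11.50, 11.60 and 11.04 on the GK-Sham-PF arrays and 10.78, 11.30, 11.32, 10.93 and 10.96 in the Roux limb. It was lower in the Roux limb than in Wistar with no overlap (-0.58 ± 0.15, adjusted p = 0.0107), and its difference of -0.45 ± 0.15 from GK-Sham-PF had an adjusted p of 0.0777. A dimmer probe of Cd6 gave -0.10 against Wistar with an adjusted p of 0.873, so the 2 probes differ. Averaged over both probes it was -0.34 (adjusted p = 0.304), and with slide as a fixed block -0.24 (adjusted p = 0.805). Cd5 lay between 4.30 and 6.52 and passed in no comparison, with -0.17 ± 0.34 between the GK groups (adjusted p = 0.821). Cd2 and Cd28 were well above background on 2 arrays and on 1 array of the 15.

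Foxp3, the transcription factor of regulatory T cells, gave 4.89, 4.77, 4.47, 4.87 and 4.84 on the Wistar arrays, 4.38, 4.68, 4.44, 5.35 and 4.62 on the GK-Sham-PF arrays and 3.98, 4.30, 4.15, 4.58 and 4.34 in the Roux limb. The groups overlapped, and only the difference of -0.50 ± 0.17 between the Roux limb and Wistar passed (adjusted p = 0.0393), at values close to the dim end of the arrays. That call was lost in 12 of 28 alternative settings, among them without Wistar replicate 1, 2, 4 or 5 or GK-S-30 replicate 1, 2, 3 or 5, with adjusted p up to 0.0945 for these. The difference was -0.13 with normexp background correction (adjusted p = 0.139) and -1.24 with slide as a fixed block (adjusted p = 0.117). Gata3, the factor of type 2 helper cells, ranged from 3.73 to 5.49, was not well above background on 1 GK-S-30 array, and passed in no comparison.

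**Figure D3:**
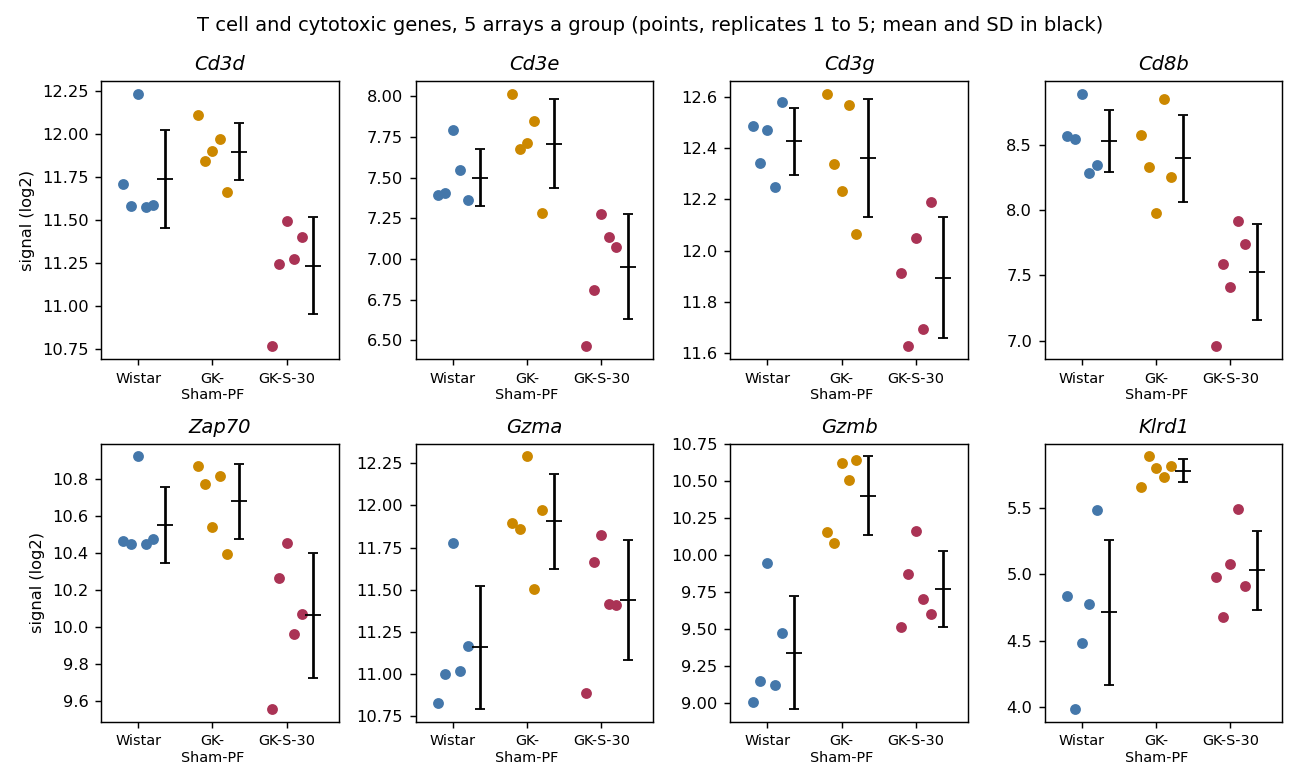
Log2 signal of 5 T cell genes and 3 cytotoxic genes on each array (points, replicates 1 to 5 from left to right) with the group mean and SD in black. The GK-S-30 points of Cd3d, Cd3e and Cd8b lie below all other points, and the GK-Sham-PF points of Klrd1 lie above all others.

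Of the 5 cytotoxic members, Gzmb and Klrd1 were higher in GK-Sham-PF than in both other groups, Gzma passed against Wistar, and Prf1 and Nkg7 passed in no comparison. Gzmb, a protease that kills target cells, gave 9.003, 9.15, 9.95, 9.12 and 9.47 on the Wistar arrays, 10.16, 10.08, 10.62, 10.51 and 10.64 on the GK-Sham-PF arrays and 9.51, 9.87, 10.16, 9.70 and 9.60 in the Roux limb. All GK-Sham-PF arrays were above all Wistar arrays, 2.09-fold (log2 difference 1.06 ± 0.18, adjusted p = 0.00131), and GK-S-30 lay 1.55-fold under GK-Sham-PF, with GK-S-30 replicate 3 inside its range (log2 difference -0.63 ± 0.18, adjusted p = 0.0401). GK-S-30 and Wistar differed by 0.43 ± 0.18, which did not pass (adjusted p = 0.0978). The difference between the GK groups was lost without Wistar replicate 5, GK-Sham-PF replicate 3, 4 or 5 or GK-S-30 replicate 1, 2, 4 or 5, with adjusted p up to 0.0936.

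Klrd1, the CD94 chain of receptors on killer cells, gave 4.84, 3.99, 4.48, 4.78 and 5.48 on the Wistar arrays, 5.66, 5.89, 5.80, 5.73 and 5.81 on the GK-Sham-PF arrays and 4.98, 4.68, 5.08, 5.49 and 4.92 in the Roux limb. The GK-Sham-PF arrays stood above all others and close together. They differed by 1.06 ± 0.21 from Wistar (adjusted p = 0.00431), and GK-S-30 differed by -0.75 ± 0.21 from them (adjusted p = 0.0379). The latter call was lost in 14 of 28 alternative settings, among them without any 1 of the GK-Sham-PF or GK-S-30 arrays except GK-S-30 replicate 4 (adjusted p up to 0.0818) and without the dimmer arrays (adjusted p = 0.0583). With normexp background correction the differences were 0.37 and -0.28, and both passed.

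Gzma, the other main granzyme, gave 10.83, 11.0001, 11.78, 11.02 and 11.17 on the Wistar arrays, 11.90, 11.86, 12.29, 11.51 and 11.97 on the GK-Sham-PF arrays and 10.89, 11.67, 11.83, 11.41 and 11.41 in the Roux limb. Wistar replicate 3 reached the range of GK-Sham-PF and the other Wistar arrays did not. The difference of GK-Sham-PF from Wistar was 0.75 ± 0.20 (adjusted p = 0.0285), and that of the Roux limb from GK-Sham-PF was -0.46 ± 0.20 (adjusted p = 0.168). The former was lost without Wistar replicate 1, 2, 4 or 5 or GK-Sham-PF replicate 1, 2, 3 or 5, with adjusted p up to 0.0795, and with slide as a fixed block it was 1.19 (adjusted p = 0.191). Its probe lay at chr2:44490165-44490224 (rn4), from base 563 of the transcript, and is shown beside the Gzmb promoter above because granzyme genes resemble one another in sequence.
Gzma probe: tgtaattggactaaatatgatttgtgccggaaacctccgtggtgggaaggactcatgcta

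Perforin (Prf1) forms pores in target cells, and Nkg7 is a granule protein. Prf1 had means of 8.60 ± 0.17, 8.87 ± 0.31 and 8.54 ± 0.23 and Nkg7 of 9.63 ± 0.42, 10.06 ± 0.18 and 9.53 ± 0.25 (SD, n = 5) in Wistar, GK-Sham-PF and the Roux limb. Their differences between the GK groups were -0.33 ± 0.15 and -0.53 ± 0.18, with adjusted p of 0.194 and 0.082. The 2 comparisons with GK-Sham-PF share its 5 arrays.

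The B cell markers went different ways. Cd79b, a signaling chain of the B cell receptor, gave 6.59, 6.34, 6.79, 6.77 and 6.82 on the Wistar arrays, 8.99, 7.27, 7.31, 7.26 and 7.35 on the GK-Sham-PF arrays and 7.93, 8.16, 7.78, 7.74 and 8.20 in the Roux limb. All GK arrays were above all Wistar arrays, 2.46-fold in the Roux limb (log2 difference 1.30 ± 0.27, adjusted p = 0.00259) and 1.97-fold in GK-Sham-PF (log2 difference 0.98 ± 0.27, adjusted p = 0.036). The latter was lost without Wistar replicate 1, 2, 4 or 5 (adjusted p up to 0.0851), and GK-Sham-PF replicate 1 at 8.99 stood far above the other 4 at 7.26 to 7.35. Without that array the difference of GK-Sham-PF from Wistar was 0.64 (adjusted p = 0.00521), and with normexp background correction it was 0.56 (adjusted p = 0.0942). The difference of the Roux limb from Wistar was 0.77 with normexp (adjusted p = 0.00837) and 2.01 with slide as a fixed block (adjusted p = 0.176).

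On GK-Sham-PF replicate 1 the 5 lymphoid follicle genes tested were on average 1.55 above their mean over all arrays, on the log2 scale, against -0.40 to 0.28 on the other 14. None of those 5 genes was called by limma in any comparison, and 1, 0 and 2 of them had an unadjusted p under 0.05 in the 3 comparisons as ordered above. The part of follicle tissue in the Cd79b values was not tested. Without that array Cd79b was called higher in the Roux limb than after the sham operation (0.66, adjusted p = 0.00681), and Cd22, described next, was called lower in GK-Sham-PF than in Wistar (-1.02, adjusted p = 0.00571).

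Cd22, an inhibitory coreceptor of B cells, ran the other way. It gave 6.91, 6.37, 6.61, 6.64 and 6.79 on the Wistar arrays, 6.98, 6.13, 5.60, 5.80 and 5.06 on the GK-Sham-PF arrays and 5.13, 4.79, 5.05, 5.23 and 5.63 in the Roux limb. The GK-S-30 arrays were all below the Wistar arrays, 2.82-fold (log2 difference -1.50 ± 0.27, adjusted p = 0.000836), and the GK-Sham-PF arrays spread over both, with GK-Sham-PF replicate 1 the highest of the 15. With normexp background correction the difference was -0.62 (adjusted p = 0.00197). A dimmer probe of Cd22 was well above background on all 5 Wistar arrays and on 0 GK-S-30 arrays. The adaptor Blnk, which links the receptor to its enzymes, lay between 8.87 and 10.69 and passed in no comparison.

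The J chain, which joins IgA in plasma cells, differed between all 3 groups in the fit without slides, with the highest signals in the Roux limb. It gave 12.04, 11.88, 12.27, 12.08 and 12.13 on the Wistar arrays, 12.65, 12.60, 12.41, 12.75 and 12.49 on the GK-Sham-PF arrays and 13.16, 13.30, 13.12, 12.77 and 13.20 in the Roux limb, and none of the 3 groups overlapped. The differences were 0.50 ± 0.11 for GK-Sham-PF against Wistar (adjusted p = 0.00729), 0.53 ± 0.11 for the Roux limb against GK-Sham-PF (adjusted p = 0.00715) and 1.03 ± 0.11 for the Roux limb against Wistar (adjusted p = 7.16e-06). With slide as a fixed block all 3 calls were lost, at differences of 0.51, 0.61 and 1.12 in the same order (adjusted p = 0.424, 0.105 and 0.0639). A dimmer probe of the J chain gave 0.47, 0.53 and 0.99 for the same comparisons, also with adjusted p under 0.05.

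The Cd79b probe lay at chr10:95703614-95703673 (rn4), from base 666 of its transcript, and is shown because Cd79b and Cd22, both of B cells, went opposite ways against Wistar.
Cd79b probe: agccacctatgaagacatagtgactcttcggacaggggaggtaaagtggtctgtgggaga

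Ptprc encodes CD45, which all leukocytes carry. It gave 8.62, 8.45, 9.44, 8.49 and 8.73 on the Wistar arrays, 8.91, 8.59, 8.68, 8.73 and 8.97 on the GK-Sham-PF arrays and 8.06, 8.49, 8.20, 8.41 and 8.38 in the Roux limb. The GK-S-30 arrays lay below all GK-Sham-PF arrays, but the difference of -0.47 ± 0.16 did not pass (adjusted p = 0.0854), nor did that of -0.44 ± 0.16 from Wistar (adjusted p = 0.0593). A dimmer probe of Ptprc gave -0.59 against Wistar with an adjusted p of 0.0119, and another gave -0.62 against GK-Sham-PF with an adjusted p of 0.0646. Averaged over all its tested probes, Ptprc passed in limma against both groups. The differences of the Roux limb were then -0.48 from GK-Sham-PF (adjusted p = 0.0401) and -0.48 from Wistar (adjusted p = 0.0189).

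Itgam had the largest difference of the myeloid members. It encodes CD11b, an integrin chain of macrophages, neutrophils and some lymphocytes, and gave 7.07, 6.72, 6.85, 6.86 and 7.41 on the Wistar arrays, 4.96, 5.19, 5.01, 5.25 and 4.08 on the GK-Sham-PF arrays and 5.68, 5.01, 5.07, 5.07 and 5.34 in the Roux limb. Every GK array was below every Wistar array, 4.24-fold in GK-Sham-PF (log2 difference -2.08 ± 0.21, adjusted p = 6.29e-06) and 3.36-fold in the Roux limb (log2 difference -1.75 ± 0.21, adjusted p = 2.45e-05). With normexp background correction these differences were -0.93 and -0.79 and both passed. The GK groups differed by 0.34 ± 0.21, which did not pass (adjusted p = 0.356). Its single probe, from base 3378 of the transcript, covered chr1:187385032-187385565 (rn4), more than its 60 bases, so that it crosses an intron. For Itgam, transcript level and strain sequence under this probe cannot be told apart here.
Itgam probe: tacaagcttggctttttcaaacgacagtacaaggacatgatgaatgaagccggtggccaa

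Mrc1, the mannose receptor of tissue macrophages, followed Itgam on a smaller scale. It gave 9.36, 8.73, 9.10, 8.95 and 9.27 on the Wistar arrays, 8.51, 8.71, 8.45, 8.64 and 8.21 on the GK-Sham-PF arrays and 8.55, 8.12, 8.51, 8.38 and 8.27 in the Roux limb. All GK arrays were below all Wistar arrays, with log2 differences of -0.58 ± 0.13 in GK-Sham-PF (adjusted p = 0.0112) and -0.72 ± 0.13 in the Roux limb (adjusted p = 0.00109). A dimmer probe gave -0.58 and -0.64 and did not pass, with adjusted p of 0.313 and 0.141. Averaged over both probes, the limma difference of GK-Sham-PF from Wistar was -0.58 and did not pass (adjusted p = 0.0711). The difference of the Roux limb from Wistar still passed with that average.

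Fcer1g, the signaling chain of several Fc receptors on myeloid, mast and killer cells, was the 1 myeloid member that was lower in the Roux limb than after the sham operation. It gave 12.12, 11.95, 12.41, 11.81 and 12.28 on the Wistar arrays, 12.29, 12.30, 12.27, 12.29 and 11.94 on the GK-Sham-PF arrays and 11.69, 11.64, 11.78, 11.79 and 11.92 in the Roux limb. The GK groups did not overlap (-0.45 ± 0.12, adjusted p = 0.0229), while GK-S-30 and Wistar did (-0.35 ± 0.12, adjusted p = 0.0367). The call against GK-Sham-PF was lost without GK-Sham-PF replicate 1 or 2 (adjusted p up to 0.0557) and stood at the threshold without replicate 3. That against Wistar was lost without Wistar replicate 1, 3 or 5 or GK-S-30 replicate 1, 2, 3 or 4 (adjusted p up to 0.0896).

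Cd68, a lysosomal protein of macrophages, gave 10.96, 10.66, 11.36, 10.64 and 11.07 on the Wistar arrays, 10.90, 10.90, 10.80, 10.98 and 10.72 on the GK-Sham-PF arrays and 10.65, 10.29, 10.44, 10.33 and 10.74 in the Roux limb. Aif1, a calcium-binding protein of macrophages, gave 11.29, 11.31, 11.72, 11.13 and 11.53 on the Wistar arrays, 11.50, 11.42, 11.29, 11.41 and 11.19 on the GK-Sham-PF arrays and 11.08, 10.75, 11.05, 10.74 and 11.20 in the Roux limb. Both overlapped between groups and were lower in the Roux limb than in Wistar, with log2 differences of -0.45 ± 0.14 for Cd68 (adjusted p = 0.0236) and -0.43 ± 0.12 for Aif1 (adjusted p = 0.0181). Wistar replicate 3 was the highest of the 15 arrays for both, and the Cd68 call was lost without Wistar replicate 5 or GK-S-30 replicate 2 or 4 (adjusted p up to 0.0569). With slide as a fixed block the difference of Aif1 was -0.27 (adjusted p = 0.738). Against GK-Sham-PF the differences of the Roux limb were -0.37 ± 0.14 and -0.39 ± 0.12, with adjusted p of 0.104 and 0.0565.

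The 7 other myeloid members passed in no comparison. They were the scavenger receptor Cd163, the endotoxin coreceptor Cd14, the growth factor receptor Csf1r, the adaptor Tyrobp, the kinase Lyn and the oxidase subunits Ncf1 and Cybb. Their differences between the GK groups ran from -0.30 for Csf1r to 0.09 for Cd14, and between GK-Sham-PF and Wistar from -0.26 for Cd14 to 0.29 for Csf1r. Lyn, for example, had means of 11.38 ± 0.06, 11.23 ± 0.05 and 11.32 ± 0.20 (SD, n = 5) in Wistar, GK-Sham-PF and the Roux limb.

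**Figure D4:**
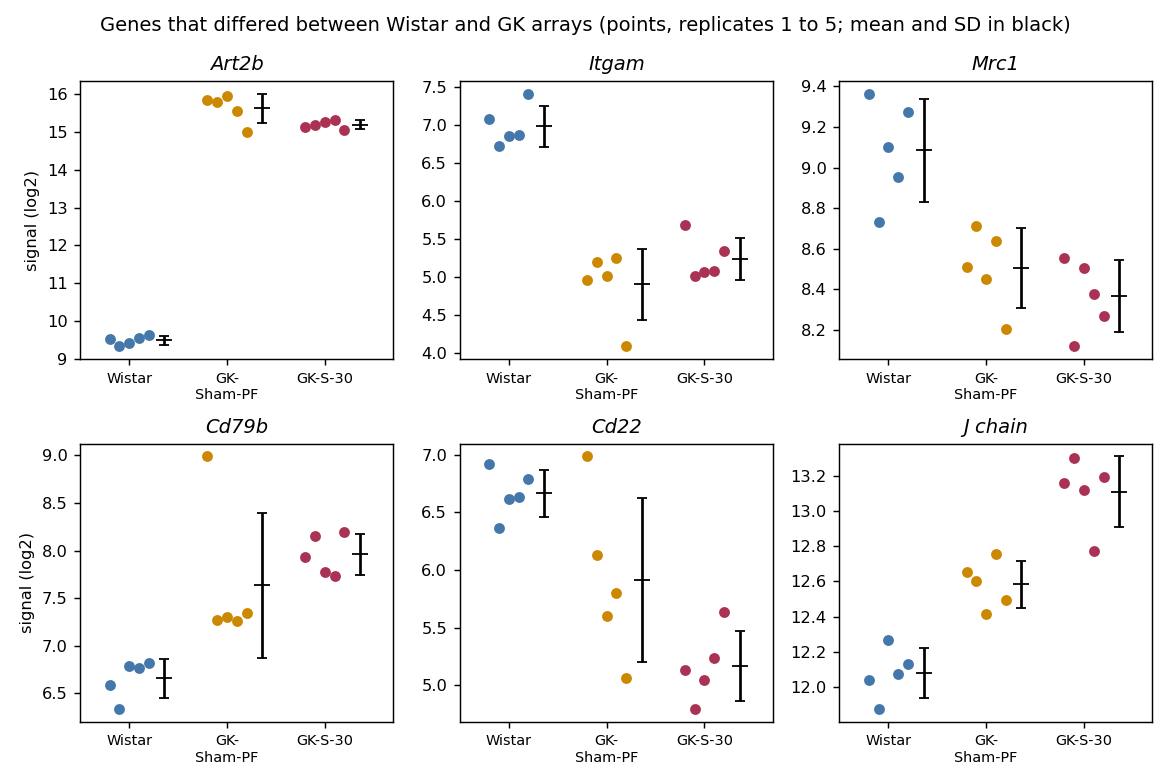
Log2 signal of 6 genes on each array (points, replicates 1 to 5 from left to right) with the group mean and SD in black, on a separate vertical scale for each gene. The GK points of Art2b lie at 14.997 to 15.97 and the Wistar points at 9.33 to 9.63, Itgam and Mrc1 are lower and Cd79b and J chain higher on every GK array than on every Wistar array.

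Art2b had by far the widest gap between strains of any gene on the list. It encodes RT6, an ecto-ADP-ribosyltransferase on mature T cells and intraepithelial lymphocytes that differs between rat strains. The signals were 9.52, 9.33, 9.42, 9.55 and 9.63 on the Wistar arrays, 15.85, 15.80, 15.97, 15.57 and 14.997 on the GK-Sham-PF arrays and 15.15, 15.20, 15.28, 15.33 and 15.05 in the Roux limb. GK-Sham-PF exceeded Wistar 70.9-fold (log2 difference 6.15 ± 0.15, adjusted p = 4.27e-13) and GK-S-30 exceeded it 52.5-fold (log2 difference 5.71 ± 0.15, adjusted p = 1.27e-12). The GK groups differed by -0.43 ± 0.15, which did not pass (adjusted p = 0.0811), and the Wistar arrays were all well above background.

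Both Art2b probes gave this gap, the dimmer one with 6.16 and 5.88. They bind the transcript from bases 432 and 281 and lay at chr1:159057829-159057888 and chr1:159057980-159058039 (rn4), without shared sequence beyond 8 bases.
Art2b brighter probe: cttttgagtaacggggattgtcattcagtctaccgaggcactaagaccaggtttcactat
Art2b dimmer probe: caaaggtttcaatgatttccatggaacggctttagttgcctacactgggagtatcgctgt
Level of transcript and strain sequence under the probes cannot be told apart here, and the same holds for the other differences between GK and Wistar arrays.

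Other genes of the same cell types came from lists of textbook markers, which were also chosen with earlier results of these data known. They are therefore no independent check on the members. Over all genes tested, 9.66%, 8.84% and 26.2% were called in the 3 comparisons as ordered above. Those shares are given for scale only, since these lists, and those of other cell types below, were chosen with earlier results known. The other T cell genes stood at 16.7%, 11.1% and 33.3%, the other myeloid genes at 4.17%, 20.8% and 37.5%, and the mast cell genes at 30%, 30% and 20%. Of 18 other T cell genes tested, 3 were lower in the Roux limb than after the sham operation and none higher, among them the adhesion receptor Cd96 (-0.85 ± 0.20) and the phosphatase Ptpn22 (-0.85 ± 0.15), with adjusted p of 0.0141 and 0.00238. The median of the 18 was -0.18. Against Wistar, 5 were lower in the Roux limb and 1 higher, with Ptpn22 (-1.09) and Cd96 (-0.86) among the lower. Between GK-Sham-PF and Wistar the interleukin receptor chain Il2rb was higher (0.59, adjusted p = 0.00362) and the costimulator Icos lower (-0.58, adjusted p = 0.0243).

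Of 13 other cytotoxic genes, 4 were lower in the Roux limb than after the sham operation and none higher, with a median of -0.51. The granzyme Gzmm had -1.23 ± 0.25 (adjusted p = 0.00597), the chemokine Ccl5 -1.02 ± 0.22 (adjusted p = 0.0103) and the surface protein Cd7 -0.76 ± 0.16 (adjusted p = 0.00827). In GK-Sham-PF 5 were higher than in Wistar and none lower, with a median of 0.47, led by Gzmc (1.61), the chemokine Xcl1 (1.29, well above background on 1 Wistar array) and Gzmk (1.14). Between the Roux limb and Wistar 3 were higher and 4 lower in the Roux limb, led by Gzmc (1.76), Ccl5 (-1.09) and Cd7 (-0.86). The granzymes are a family of similar sequences, and the probes were not tested for cross-binding.

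Among 14 other B and plasma cell genes, 3 were higher in the Roux limb than after the sham operation and none lower. They were the plasma cell receptor Tnfrsf17 (0.71 ± 0.18, adjusted p = 0.02), the coactivator Pou2af1 (0.63 ± 0.17, adjusted p = 0.0295) and the antibody-assembly factor Mzb1 (0.60 ± 0.17, adjusted p = 0.0327). In GK-Sham-PF 4 were higher than in Wistar, led by the receptor Tnfrsf13b (1.08), Vpreb3 (0.89) and Cd79a (0.82), the partner of Cd79b. In the Roux limb 6 were higher than in Wistar and 1 lower, led by Tnfrsf13b (1.22), Mzb1 (1.17) and Fcrla (-1.11).

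In 24 other myeloid genes, 1 differed between the GK groups, the complement chain C1qc (-0.54 ± 0.16, adjusted p = 0.0406). Between GK-Sham-PF and Wistar 3 were higher and 2 lower in GK-Sham-PF. The neutrophil and epithelial proteins S100a8 and S100a9 were higher in GK-Sham-PF, by 3.78 and 2.03, S100a8 being well above background on only 1 Wistar array, and the dendritic cell receptor Flt3 was lower at -1.02. In the Roux limb 3 were higher than in Wistar and 6 lower, led by S100a8 (3.45), S100a9 (2.01) and Flt3 (-1.30). Of 13 other pan-leukocyte genes, 2 were lower in the Roux limb than after the sham operation, the integrin chain Itgae of intraepithelial lymphocytes (-0.61 ± 0.12, adjusted p = 0.00594) and the lysosomal protein Laptm5 (-0.49 ± 0.10, adjusted p = 0.00672). Between GK-Sham-PF and Wistar the adhesion protein Cd48 was higher (0.66) and Laptm5 lower (-0.34) in GK-Sham-PF. In the Roux limb 2 were higher than in Wistar and 4 lower, led by Itgae (-0.93), Laptm5 (-0.83) and Cd48 (0.64).

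Markers of cells other than these leukocytes moved between the same groups. Of 8 smooth muscle genes tested, 5 were higher in the Roux limb than after the sham operation, with a median difference of 1.33, led by Actg2 (2.35), Cnn1 (2.23) and Des (1.99). Their mean over the list was 0.72 to 1.07 above its level over all arrays in the Roux limb, against -0.92 to 0.25 in GK-Sham-PF and -0.66 to 0.03 in Wistar. Of 13 epithelial genes 1 was higher in the Roux limb than after the sham operation and none lower, with a median of 0.06. The part of these muscle signals in the lower T cell signals was not tested.

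Mast cell genes were lower in the Roux limb than after the sham operation for 3 of 10 tested, the proteases Mcpt1 (-0.89) and Mcpt8 (-0.65) and the Fc receptor chain Ms4a2 (-0.69), and Fcer1g is carried by mast cells too. Between GK-Sham-PF and Wistar 3 of the 10 differed, with Mcpt1 (0.74, adjusted p = 0.0422) and Mcpt8 (0.73, adjusted p = 0.00054) higher and the chymase Cma1 (-1.23, adjusted p = 0.0144) lower in GK-Sham-PF. In the Roux limb Ms4a2 (-1.10) and Cma1 (-1.04) were lower than in Wistar. The mast cell list averaged -0.47 to -0.12 in the Roux limb, -0.01 to 0.52 in GK-Sham-PF and -0.11 to 0.30 in Wistar, and its part in the results for the members was not tested.

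Between GK-Sham-PF and Wistar none of the 8 smooth muscle, 13 epithelial, 7 endothelial or 5 red blood cell genes was called by limma, with 0, 1, 2 and 4 at an unadjusted p under 0.05. Between the Roux limb and Wistar 6 smooth muscle genes were higher, led by Cnn1 (2.14), Actg2 (2.12) and Des (1.78). The epithelial genes called there were Krt18 (0.32), Fabp2 (-0.28) and Cdx1 (0.26). The endothelial genes were Kdr (-0.79) and Vwf (0.42), and the red blood cell genes were Alas2 (1.29) and Slc4a1 (0.81). Between the GK groups Krt18 (0.29), Vwf (0.55) and Slc4a1 (0.87) were higher in the Roux limb. Of the 3 pancreatic acinar genes tested, Ctrb1 was lower in the Roux limb than in either other group (-0.92 and -1.06), and Prss1, well above background on 1 Wistar array, was higher there than in Wistar (2.60).

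**Figure D5:**
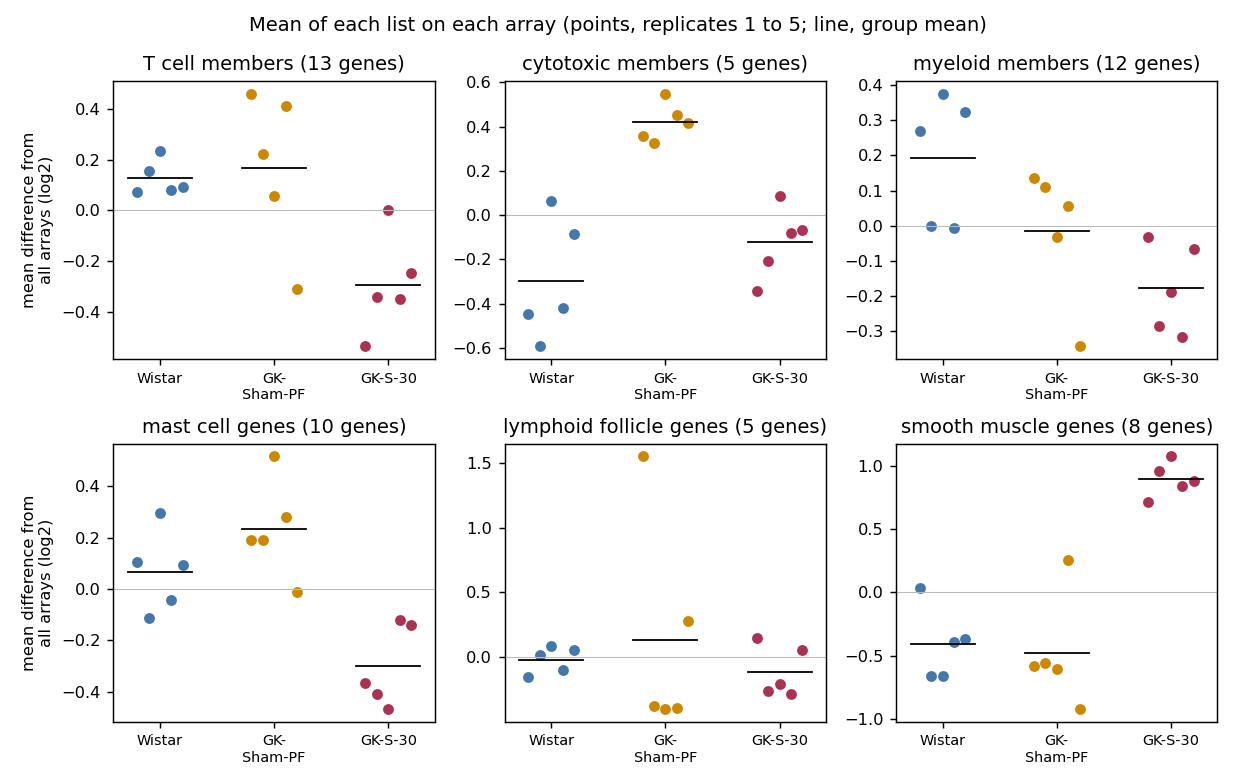
Mean over a list of each gene's log2 signal less its mean over all 15 arrays, for each array (points, replicates 1 to 5 from left to right) and group (line, mean), on a separate vertical scale for each list. The T cell mean of every GK-S-30 array is below all Wistar arrays and all GK-Sham-PF arrays except replicate 5, the cytotoxic mean of every GK-Sham-PF array is above all others, and the smooth muscle mean of every GK-S-30 array is above all others.

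Averaged over the 13 T cell members, the arrays of the Roux limb lay between -0.54 and 0.00 from the mean of all arrays, those of GK-Sham-PF between -0.31 and 0.46 and those of Wistar between 0.07 and 0.23. The 5 cytotoxic members averaged 0.33 to 0.55 in GK-Sham-PF, -0.34 to 0.08 in the Roux limb and -0.59 to 0.06 in Wistar, so that GK-Sham-PF did not overlap with either group. The 12 myeloid members averaged -0.32 to -0.03 in the Roux limb, -0.34 to 0.14 in GK-Sham-PF and -0.01 to 0.38 in Wistar.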

How the data were processed

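Total RNA from intestinal segments of 15 rats was hybridized to one-color Agilent rat arrays, 5 per group. The authors extracted spot intensity with Feature Extraction 10.7 (10.7.3.1 per the file headers), and the deposited processed signal is background-corrected intensity on a linear scale. The deposited series table holds the authors' quantile-normalized log2 values and served as an alternative.

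Control and outlier spots were left out. Repeated spots were averaged per probe before the log2 signals were quantile-normalized. The probes tested had a signal flagged well above background on all 5 arrays of 1 group or more, and the brightest tested probe stood for a gene, which gave 17031 probes and 13025 genes. The 3 groups were fitted with limma 3.58.1 in R 4.3.3 over all 15 arrays, with Benjamini-Hochberg adjustment over all genes and a threshold of 0.05. The procedure was tested on simulated data. The precision is limited by the number of arrays. The p-values measure the spread between arrays of a group, in which differences between rats, hybridizations and slides are mixed.

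All listed genes are named, with every array given for those called or not overlapping, and up to 3 called genes of each other list and comparison by size of difference. A gene that this rule would name is not reported here. Members and lists were chosen with earlier results of these data known. Sequences shown were chosen after the values were seen. Replicate numbers mark different rats and do not pair the arrays: same-numbered arrays of different groups deviated with correlations of -0.28 to 0.18. Slides were read from the array identifiers. Alternatives covered background, normalization, probe filter, slide, replicate block, test, probe choice and each array left out.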

Additional observations from a re-analysis of the deposited data

Results flagged for a closer look

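In each group of 5 arrays the gap from the highest or lowest value of a marker to its nearest neighbor was divided by the group's range. By Dixon's critical value of 0.71 for this ratio, 12 of 108 sets of values had an array standing apart. Chance gives about 1 in 20, or 5.4. Most lay on the 2 dimmer arrays. On Wistar replicate 3, Cd3d was 12.24 (others 11.58 to 11.71), Cd6 11.89 (11.52 to 11.61), Zap70 10.92 (10.44 to 10.47) and Ptprc 9.44 (8.45 to 8.73), all high, while Foxp3 was low at 4.47 (4.77 to 4.89). On GK-Sham-PF replicate 5, Cd247 was 3.50 (4.73 to 5.14), Cd8a 7.37 (8.57 to 8.85), Itgam 4.08 (4.96 to 5.25) and Fcer1g 11.94 (12.27 to 12.30), all low. The others were Cd79b at 8.99 on GK-Sham-PF replicate 1 (7.26 to 7.35), Cd247 at 4.97 on GK-S-30 replicate 3 (4.07 to 4.23) and Prf1 at 8.30 on Wistar replicate 2 (8.62 to 8.72). All values are log2 signals.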

How the results depend on the processing

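No called difference of a member, Art2b or J chain changed direction in any setting. Between the GK groups the 8 members called became 2 with slide as a fixed block, 5 with the replicate block, 1 by Tukey's test with Benjamini-Hochberg adjustment, 13 by Tukey's test unadjusted over genes, 16 without both dimmer arrays and 4 to 12 with single arrays left out. The 6 of GK-Sham-PF against Wistar became 1 with slide as a fixed block and 4 to 7 with single arrays left out. The 14 of GK-S-30 against Wistar became 0 with slide as a fixed block, 7 by adjusted Tukey and 10 to 15 with single arrays left out. With the replicate block the latter counts were 5 and 14, and since the numbers do not pair the rats, a call lost there is not a weaker effect. Over all genes, 1258, 1151 and 3413 calls in the 3 comparisons, in that order, became 285, 179 and 237 with slide as a fixed block. With single arrays left out they ran from 866 to 1502, from 866 to 1216 and from 2825 to 3700. Adjusted Tukey called 505 and 713 in the comparisons with GK-Sham-PF, and unadjusted Tukey 2121 and 1916. The calls over all genes by Tukey's test for GK-S-30 against Wistar are not given here. Nor are those with the replicate block, with slide as a random block or without both dimmer arrays. The counts of members in those settings have no share to be set against. Slide and group share most arrays, and with slide as a random block the members called were 9, 6 and 15. The correlation within slides in that fit was -0.04. It is therefore close to the fit without slides and cannot remove slide differences that go with group. Dim genes such as Foxp3, Cd4 and Cd247 are limited by signal near background.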
